A study of Mus musculus with 2 samples.

Results

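The genes described here are 35 genes of the interferon response and of antigen presentation on MHC class I. They are among 25289 genes counted in single stromal cells of mouse bone marrow. The 35 were chosen by name, but with earlier results of these data known. The cells came from bone marrow of C56BL/6 mice (the strain as labelled) aged 8 to 16 weeks, with no genetic change or treatment named, and were sorted as viable and negative for the blood marker CD45, the red cell marker Ter119 and the endothelial marker CD31. There was 1 group of 2 samples, Stroma1 with 948 passing cells and 1658990 counts and Stroma2 with 1899 passing cells and 3687913 counts. Each passing cell carried 1 of 7 classes given by the authors. These were MSC (taken to stand for mesenchymal stem or stromal cell), an adipocyte branch of Adipocyte progenitor and Pre-adipocyte, a bone branch of Osteoblast progenitor, Pre-osteoblast/chondrocyte and Pro-osteoblast, and Pro-chondrocyte. Whether the samples are from separate animals is not stated, so p-values measure only the spread of class differences over these samples, which may be technical. The classes and the pseudotime may rest in part on the genes compared.

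Interferons are secreted proteins that cells release on sensing viral nucleic acid or on immune activation. Type I interferon signals through the receptor chains Ifnar1 and Ifnar2 to a complex with Stat2 and Irf9 that binds the interferon-stimulated response element, while interferon gamma signals through Ifngr1 and Ifngr2 and acts on genes with a gamma-activated site. Many cells carry a low tonic level of this response without infection. MHC class I molecules, made of a heavy chain such as H2-K1 or H2-D1 and the light chain B2m, show peptides to CD8 T cells. The peptides are cut by the proteasome, in which interferon places the subunits Psmb8 and Psmb9, carried into the endoplasmic reticulum by Tap1 with Tap2, and loaded with the help of tapasin, the product of Tapbp. Marrow stromal cells make the niche factors of blood formation, and osteoblasts lay down bone matrix.

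All 35 genes were in the table, with between 18 counts (Xaf1) and 24481 counts (B2m) in passing cells. Levels are counts summed over the cells of a class in a sample and scaled to CPM with TMM normalization (normalised CPM), and pairs of values give Stroma1 first. The filter on low counts kept 31 of the 35 genes among 6229 genes tested over classes. Ifit2, Usp18, Rsad2 and Xaf1, with 37, 81, 24 and 18 counts, were not tested. Folds come from edgeR's quasi-likelihood test with Benjamini-Hochberg adjustment over all tested genes, with n = 2 samples in each class, and an adjusted p under 0.05 was called.

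The sorted cells carried stromal markers: Cxcl12, a chemokine of the marrow niche, had counts in 89.6% of passing cells, while Ptprc, which encodes CD45, had 14 counts in 11 cells. Cells with any count of a set of 14 blood genes made up 3.03% to 6.94% of every tested class and sample except Pre-osteoblast/chondrocyte in Stroma1, where 4 of 25 cells held one. Neutrophil markers were uneven: 2 cells (3.03% of the class) held the 281 such counts of Pre-adipocyte in Stroma1, and 8 markers summed to 2255 and 372 CPM in Pre-adipocyte, 12.6 and 386 in Osteoblast progenitor and 24.7 and 29.2 in MSC. Within samples, 235 barcodes occurred in more than 1 library, and the 499 cells that carry them had the same class in 203 of the 235 cases. That was 93.8% of cases in Stroma1 and 85.2% in Stroma2. By class sizes alone 2 cells would have the same class in 34.1% and 26.0%. Whether libraries of a sample hold the same cells is not known. Keeping each barcode once per sample left all 56 folds named here on the same side of the threshold.

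Cells differed in their counts, which bears on every fold. Pro-osteoblast cells had means of 4458 and 4757 counts, against 1453 and 1259 in MSC, so less RNA of a gene per total RNA and less per cell are separate questions. TMM placed the median of all genes at 0.01 (log2) in Pro-osteoblast against MSC. Scaling to the number of cells moved that median to 0.65, and scaling to total counts moved it to −1.24. The median of the 31 genes was −2.70, −2.07 and −3.92 under the 3 scalings. Rescaling shifts all genes by nearly the same amount, so the distance between the 2 medians could change little. That distance is therefore no check of the fall. The share of higher genes among all calls was 51.6% with TMM, 76.1% per cell and 9.24% by total counts. Both scalings other than TMM were chosen after the data were seen.

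Promoters of the genes are shown first. The genes were chosen by name as interferon response and class I genes, so their motif shares are no result of the measured counts. RefSeq promoter sequences (GRCm38.p6, 250 bases before to 50 bases after the start site) were at hand for 29 of the 35 genes. The core of the interferon-stimulated response element, taken as GAAA, any 2 bases and GAAA on either strand, was present in promoters of 15 of the 29 genes (15 of 34 promoter entries, 44.1%) against 3.44% of all 32851 promoters. The gamma-activated site, taken as TTC, any 3 bases and GAA, was present in 7 of the 29 genes (20.6% of entries) against 8.30% of all promoters. Bst2, Gbp7, Ifitm3 and Igtp held both, and in Bst2 and Ifitm3 the gamma-activated match overlapped a match to the other motif. Below, 8 windows with matches to the response element core, read 5′ to 3′ along the gene and ending before the start site, have the matches in capitals (TTTC, any 2 bases and TTTC is the same motif on the other strand), and the last shows the gamma-activated match of Irf1.
Ifit1, chr19:34640765-34640833, + strand: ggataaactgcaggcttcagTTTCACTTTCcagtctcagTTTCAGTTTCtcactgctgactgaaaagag
Ifit3, chr19:34583353-34583436, + strand: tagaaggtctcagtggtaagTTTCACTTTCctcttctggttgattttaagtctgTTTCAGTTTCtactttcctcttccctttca
Isg15, chr4:156200855-156200916, − strand: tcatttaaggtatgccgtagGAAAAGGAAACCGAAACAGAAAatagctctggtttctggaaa
Bst2, chr8:71537567-71537622, − strand: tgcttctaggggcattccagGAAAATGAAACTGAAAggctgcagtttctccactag
Igtp, chr11:58199502-58199551, + strand: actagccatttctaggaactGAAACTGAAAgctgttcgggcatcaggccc
Gbp7, chr3:142530263-142530312, + strand: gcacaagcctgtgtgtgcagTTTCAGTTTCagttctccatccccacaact
Cxcl10, chr5:92349073-92349122, − strand: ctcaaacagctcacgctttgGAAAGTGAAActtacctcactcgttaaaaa
B2m, chr2:122147528-122147577, + strand: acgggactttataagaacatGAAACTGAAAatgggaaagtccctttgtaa
Irf1, chr11:53769904-53769952, + strand: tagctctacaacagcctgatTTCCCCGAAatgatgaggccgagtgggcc
Isg15 held 3 overlapping matches, and Ifit1, Ifit3 and Bst2 held 2 each. A match describes these letters and is not a mapped binding site.

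The genes fall into neighbourhoods of the mouse genome (GENCODE M21 annotation, GRCm38). On chromosome 17, within the MHC, H2-K1 (33996017 to 34000347), Psmb9 (34181987 to 34187764), Tap1 (34187553 to 34197225), Psmb8 (34197721 to 34201454) and H2-D1 (35262730 to 35267499) lie near Tapbp (33915899 to 33929292), while B2m is on chromosome 2 (122147686 to 122153083). Cxcl9 (92321347 to 92328079) and Cxcl10 (92346638 to 92348889) are neighbours on chromosome 5. Psmb9 and Tap1 run in opposite directions and overlap at their starts, and the sources used here do not say whether strand was used in counting. Reads of near copies could also be divided: 41.9% of the 50-base words in the last 500 bases of Ifitm2 transcripts occur in other genes, against 14.9% for Ifit3, 14.0% for Ifitm3, 11.8% for Ifitm1, 9.60% for H2-K1, 8.92% for H2-D1 and 0 for B2m, Irf1, Cxcl9, Cxcl10 and Iigp1. Values of those Ifit, Ifitm and H2 genes are uncertain to that extent.

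In MSC, the largest class, transcripts of class I presentation were found in nearly every cell. B2m had counts in 98.2% and 97.3% of MSC cells, at 5236 and 4934 normalised CPM. H2-K1 stood at 4680 and 4502, and H2-D1 at 3318 and 3108. Ifitm3, which blocks entry of viruses at endosomes, stood at 1048 and 926, Tapbp at 683 and 574, Ifi27 at 314 and 297, and Bst2 (tetherin, which holds budding virus at the cell surface) at 277 and 247. Isg15, a ubiquitin-like protein joined to other proteins after interferon, stood at 156 and 104. Ifit1, whose product binds viral RNA, stood at 53.0 and 53.5, Ifit3 at 35.4 and 35.1 and Zbp1, a sensor of nucleic acid that triggers cell death, at 35.4 and 32.6. The samples were close for most of these genes. Cxcl9 (179 and 96.9) and Cxcl10 (113 and 51.0), chemokines that draw T cells through the receptor Cxcr3, were higher in Stroma1.

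**Figure D1:**
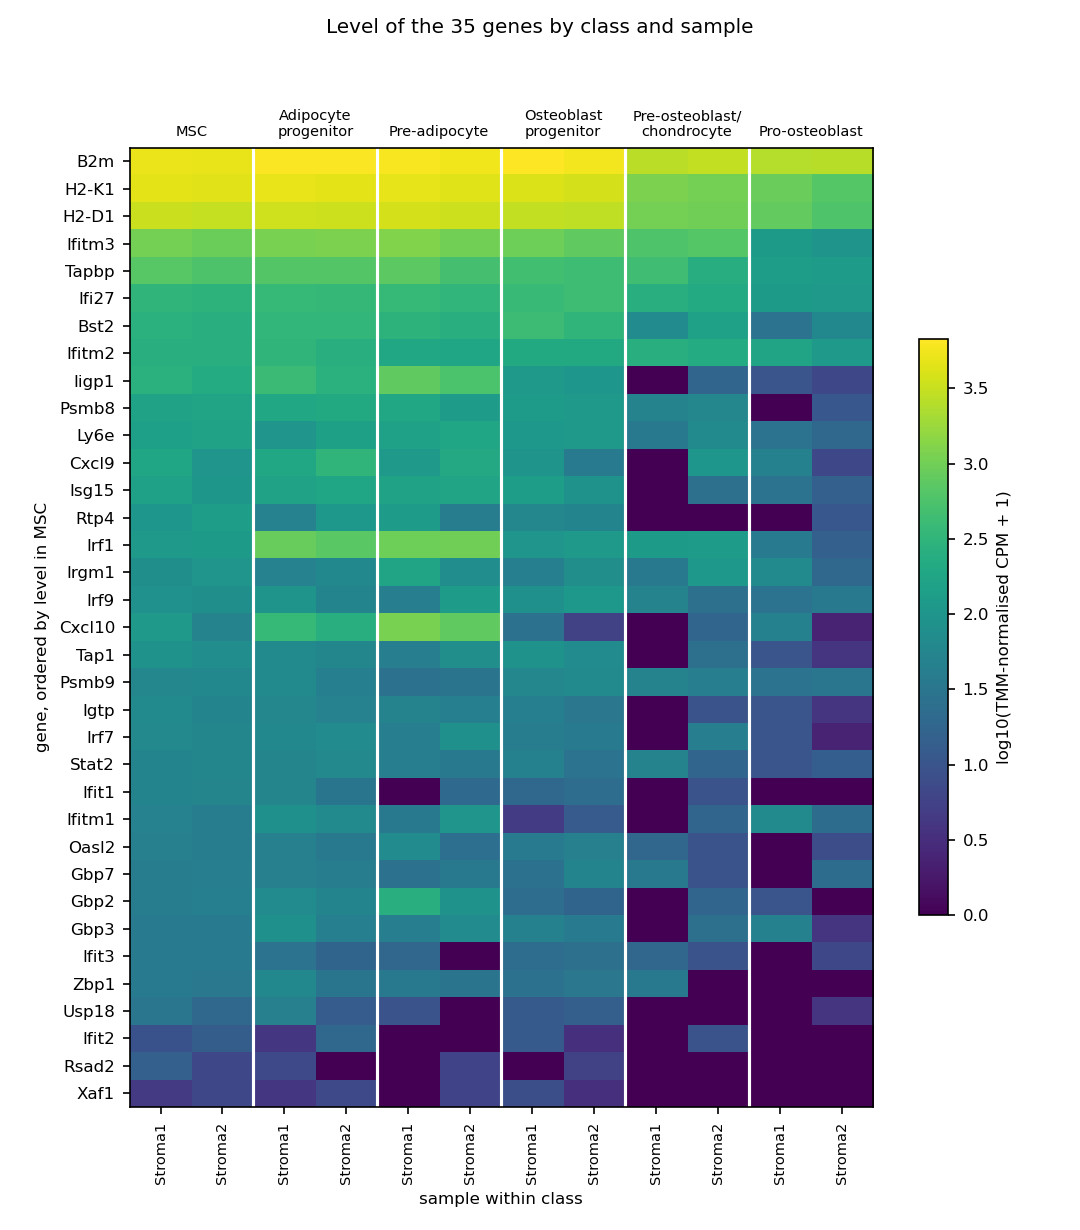
Rows are the 35 genes, ordered by their mean MSC level, and columns are the 2 samples within each of 6 classes; colour is log10 of normalised CPM + 1. B2m falls from 5236 and 4934 in MSC to 2483 and 2564 in Pro-osteoblast, and Irf1 and Cxcl10 stand out in both adipocyte classes.

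The adipocyte branch differed from MSC in a few members only. In Adipocyte progenitor 3 of 31 genes were higher and 0 lower, beside 3.95% of all 6229 genes higher and 0.225% lower, and the median of the 31 was 0.17 against 0.01 for all genes (log2). DESeq2's Wald test also called 0 lower, and at an unadjusted p under 0.05 edgeR had 1 lower. The 3 were Irf1, a transcription factor that carries interferon gamma signals and is also an early-response gene, Cxcl10 and Cxcl9. The class I chains were not called: B2m was at 6445 and 6317, a change of 0.33 ± 0.12 (SE; adjusted p = 0.162), H2-K1 changed by 0.06 ± 0.12 (adjusted p = 0.957) and H2-D1 by 0.12 ± 0.12 (adjusted p = 0.848). Scaled to cell number, B2m was called higher (0.54, adjusted p = 0.0337). The share of higher genes among all calls was 94.6%, and 78.2% when scaled to total counts.

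Irf1 was at 854 and 699 normalised CPM in Adipocyte progenitor and at 952 and 996 in Pre-adipocyte, against 111 and 119 in MSC. These groups did not overlap. The log2 change was 2.74 ± 0.18 (adjusted p = 3.58e-23) and 3.08 ± 0.19 (adjusted p = 6.61e-25), higher in 2 of 2 samples each time. Cxcl10 was at 369 and 260 in Adipocyte progenitor and at 1122 and 782 in Pre-adipocyte, against 113 and 51.0 in MSC. Its 3 groups stood in that order with no overlap, with changes of 2.01 ± 0.24 (adjusted p = 5.67e-11) and 3.60 ± 0.23 (adjusted p = 7.31e-24). Cxcl9 was at 195 and 319 in Adipocyte progenitor, against 179 and 96.9 in MSC, a rise of 0.97 ± 0.28 (adjusted p = 0.0203) that was 0.12 in Stroma1 and 1.67 in Stroma2. Scaled to total counts it was 0.80 and not called (adjusted p = 0.111). In Pre-adipocyte Cxcl9 was at 111 and 204, which overlaps MSC, and was not called (0.32 ± 0.35, adjusted p = 0.653; −0.70 in Stroma1 and 1.01 in Stroma2). DESeq2's Wald test called 1 of the 3 genes in Adipocyte progenitor, and there gave adjusted p = 0.478 for Cxcl10 and 1.0 for Cxcl9.

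In Pre-adipocyte 4 of 31 genes were higher and 0 lower, beside 8.48% of all genes higher and 1.86% lower; the median of the 31 was 0.11 and that of all genes −0.05. DESeq2 also called 0 lower, and unadjusted 3 were lower. Besides Irf1 and Cxcl10 they were Iigp1, an immunity-related GTPase that disrupts vacuoles of intracellular parasites, and Gbp2, a guanylate-binding protein of the same defence. Iigp1 was at 773 and 559 against 277 and 221 in MSC, with no overlap, and rose by 1.40 ± 0.20 (adjusted p = 1.15e-08). In Adipocyte progenitor Iigp1 was at 400 and 278 and was not called (0.43 ± 0.19, adjusted p = 0.284), but scaled to cell number it was called higher (0.64, adjusted p = 0.0261). Gbp2 was at 255 and 87.4 against 38.9 and 44.3 and rose by 1.86 ± 0.41 (adjusted p = 0.000352), which was 2.70 in Stroma1 and 0.92 in Stroma2. B2m (0.21 ± 0.13, adjusted p = 0.379), H2-K1 (−0.03 ± 0.13, adjusted p = 0.934) and H2-D1 (0.17 ± 0.13, adjusted p = 0.484) were not called. Ifit1 was at 0 and 19.4 and Ifit3 at 17.0 and 0, both not called. The share of higher genes among all calls was 82.0%, and 43.7% when scaled to total counts.

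Some genes outside the 35 also changed in these classes. Socs1 and Socs3, which encode feedback inhibitors of Jak and Stat signalling, rose in Adipocyte progenitor by 2.70 and 2.30 and in Pre-adipocyte by 3.06 and 2.55 (adjusted p of 4.16e-07 or less in edgeR's test). Of 13 tested receptor and signalling genes outside the 35, these were the 2 called in Adipocyte progenitor, both higher, while in Pre-adipocyte 4 were higher (Jak1 and Stat3 as well) and 1, Ifngr1, was lower. Of 15 tested interferon-induced genes outside the 35, 0 were called in Adipocyte progenitor. In Pre-adipocyte 1 of them was higher (Cmpk2) and 2 lower (Eif2ak2 and Irgm2). Of all genes, 3.95% were higher and 0.225% lower in Adipocyte progenitor, and 8.48% higher and 1.86% lower in Pre-adipocyte. Fos, Junb and Egr1, early-response genes named after their values were seen, rose by 2.51, 2.38 and 3.04 in Adipocyte progenitor and by 2.78, 3.68 and 3.87 in Pre-adipocyte. Neutrophil markers S100a8, S100a9 and Retnlg rose in Pre-adipocyte by 5.95, 6.51 and 7.45. The part of the early-response genes and of the neutrophil RNA in the rise of Irf1 and Cxcl10 was not tested. Without the cells that held 1 of the 14 blood genes all named calls stayed, but that set does not include the neutrophil markers.

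In Osteoblast progenitor 0 of 31 genes were higher and 6 lower, beside 4.62% of all genes higher and 3.31% lower; the median of the 31 was −0.25 and that of all genes 0.01. DESeq2 also called 0 higher, and unadjusted 3 were higher. Cxcl10 was at 25.7 and 4.54 normalised CPM, below MSC in both samples, and fell by 2.54 (SE 0.46, adjusted p = 1.99e-05). Cxcl9 was at 95.5 and 38.6 and fell by 1.11 (SE 0.35, adjusted p = 0.0304), with its Stroma1 value close to the Stroma2 value of MSC. Iigp1 was at 118 and 102 and fell by 1.16 (SE 0.23, adjusted p = 7.41e-05). Ifitm1, a cell-surface relative of Ifitm3, was at 3.67 and 11.4 and fell by 2.36 (SE 0.61, adjusted p = 0.00442). Rtp4, an interferon-induced chaperone of membrane receptors, was at 58.8 and 52.2 against 103 and 135 and fell by 1.12 (SE 0.36, adjusted p = 0.0304), and Tapbp was at 466 and 431 and fell by 0.47 (SE 0.14, adjusted p = 0.0211).

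The class I chains were not called there: B2m was at 6684 and 5823 (0.30 ± 0.12, adjusted p = 0.163), H2-K1 at 4187 and 3772 (−0.21 ± 0.12, adjusted p = 0.401) and H2-D1 at 3001 and 2918 (−0.12 ± 0.12, adjusted p = 0.720). Of the 6 calls, 2 held in DESeq2's Wald test, which gave adjusted p = 0.168 for Cxcl10, 0.859 for Cxcl9, 0.417 for Rtp4 and 0.263 for Tapbp; scaling to cell number also ended the calls of Cxcl9, Rtp4 and Tapbp (adjusted p of 0.0787, 0.0928 and 0.392) and moved the share of higher genes among all calls from 58.3% to 76.4%. The neutrophil markers S100a8, S100a9 and Retnlg were higher in this class by 3.66, 3.75 and 4.73, with nearly all neutrophil marker counts in Stroma2. Of 6 genes common to blood cells 2 were tested: Fcer1g was higher by 1.62, and the other changed by −1.58 and was not called. Mitochondrial counts were 7.23% and 6.90% against 4.32% and 4.31% in MSC. The part of these differences in the falls was not tested.

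Pre-osteoblast/chondrocyte, with 25 and 66 cells, had 0 of 31 genes higher and 15 lower, beside 9.36% of all genes higher and 8.62% lower; the median of the 31 was −1.48 and that of all genes −0.06. DESeq2 called 0 higher and 11 lower, and unadjusted 0 were higher. H2-K1 was at 1156 and 1067 normalised CPM and fell by 2.04 (SE 0.16, adjusted p = 1.63e-18). H2-D1 was at 1054 and 1000 and fell by 1.64 (SE 0.16, adjusted p = 4.93e-14). B2m was at 2668 and 2975 and fell by 0.83 (SE 0.15, adjusted p = 3.98e-06), which was 0.46 per cell with adjusted p = 0.0620. All 3 lay below MSC in both samples. Of the 7 class I genes 6 were lower, Psmb9 being the exception, while 0 of the 4 tested regulators (Irf1, Irf7, Irf9 and Stat2) were called; Irf1 was at 119 and 126, close to MSC. Among the 14 blood genes, Fcer1g was higher in this class by 2.19, with 14 counts, and the other 13 had 0 counts. Of the 6 genes common to blood cells 2 were tested: Fcer1g, and 1 that changed by −2.59 and was not called. The part of blood RNA in these falls was not tested.

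The largest falls in this class rest on few counts. Rtp4 had 0 counts against 249 in MSC, at least 7.22-fold lower with a floor of 3 counts over both samples. Iigp1 had 2 counts against 500 (ratio 21.7, counting interval 5.99 to 180), Igtp, another immunity-related GTPase, had 1 against 118 (ratio 10.3, interval 1.81 to 409), Ifit1 had 1 against 109 (ratio 9.48, interval 1.67 to 378), Isg15 had 3 against 256 (ratio 7.42, interval 2.51 to 36.2) and Cxcl10 had 2 against 157 (ratio 6.83, interval 1.86 to 56.8). Cxcl9, with 12 counts in 2 cells of Stroma2 and 0 in Stroma1, was not called (−0.998 ± 0.53, adjusted p = 0.208). DESeq2's Wald test lost Igtp, Ifit1 and Cxcl10 (adjusted p of 0.103, 0.132 and 0.236). Scaling to cell number gave 7 lower genes and moved the share of higher genes among all calls from 52.1% to 72.0%, and scaling to total counts moved it to 39.6%.

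In Pro-osteoblast 5 of 6 osteoblast markers were higher than in MSC and 1 was lower (log2 change −0.49). Of the 31 genes 0 were higher in this class and 29 were lower, beside 19.9% of all genes higher and 18.7% lower. The median of the 31 was −2.70 (log2), against 0.01 for all genes. DESeq2 called 0 higher and 24 lower, and unadjusted 0 were higher. All 4 tested regulators, all 6 GTPases, both chemokines, all 9 tested effectors and other induced genes, 6 of 7 class I genes and 2 of 3 Ifitm genes were lower. Psmb9 (25 counts against 122 in MSC; −0.94, adjusted p = 0.0667) and Ifitm1 (65.6 and 21.1 against 48.3 and 40.9; −0.57, adjusted p = 0.384) were not called. The direction was the same in both samples for 28 of the 29, the exception being Gbp3, with 5 counts in Stroma1 (46.8 normalised CPM, above the 35.4 of MSC) and 2 in Stroma2. Scaled to cell number 24 of 31 were lower, and scaled to total counts all 31.

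The class I chains fell unequally. H2-K1 was at 881 and 644 normalised CPM and fell by 2.67 (SE 0.15, adjusted p = 1.26e-28), and H2-D1 was at 796 and 582 and fell by 2.31 (SE 0.15, adjusted p = 5.36e-25). B2m, their shared partner, was at 2483 and 2564 and fell by 0.996 (SE 0.13, adjusted p = 7.34e-10). All were below every MSC value. Per cell, H2-K1 changed by −2.005 and H2-D1 by −1.64 (adjusted p of 6.03e-18 and 6.36e-14), while B2m, with 6.31 and 5.97 counts per cell against 8.85 and 7.25, changed by −0.37 and was not called (adjusted p = 0.0690). Of the peptide supply, Psmb8 was at 0 and 9.86 against 162 and 172 and Tapbp at 141 and 123 against 683 and 574. Tap1 had 3 counts against 163 in MSC, a ratio of 21.7 with a counting interval of 7.29 to 106, and fell by 4.28 (SE 0.62, adjusted p = 7.51e-09).

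Among the other members, Ifit1 and Zbp1 had 0 counts in the 347 Pro-osteoblast cells against 109 and 69 in MSC, which is at least 14.5-fold and 9.18-fold lower with a floor of 3 counts over both samples. Iigp1 was at 9.37 and 5.64, with 5 counts in all, and fell by 5.13 (SE 0.41, adjusted p = 2.59e-19). Gbp2 had 1 count against 86 (ratio 34.3, interval 6.00 to 1371; change −4.61, SE 0.90, adjusted p = 1.04e-05), and Irf7, the factor that amplifies type I interferon, had 2 against 118 (ratio 23.5, interval 6.38 to 197; change −4.43, SE 0.73, adjusted p = 3.02e-07). Cxcl9 was at 46.8 and 5.64 and fell by 3.47 (SE 0.51, adjusted p = 1.37e-08), and Cxcl10 at 46.8 and 1.41 and fell by 3.04 (SE 0.52, adjusted p = 7.03e-07). In Stroma1 those 2 values are 5 counts each, from a single cell for each gene. In Stroma1 and Stroma2 alone Cxcl9 changed by −1.93 and −4.13 and Cxcl10 by −1.27 and −5.04. Without cells with a blood marker the changes were −4.47 and −4.98, and DESeq2's Wald test gave adjusted p of 0.101 and 0.0702. Ifitm3 was at 122 and 94.4 against 1048 and 926, while Ifitm2, also with much sequence in common with other genes, was at 169 and 118 against 248 and 255. Of the members with a RefSeq promoter, 14 of 14 tested with the response element core were lower (median −2.47 with genes at 0 at their bound) and 10 of 12 without it (median −2.68).

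**Figure D2:**
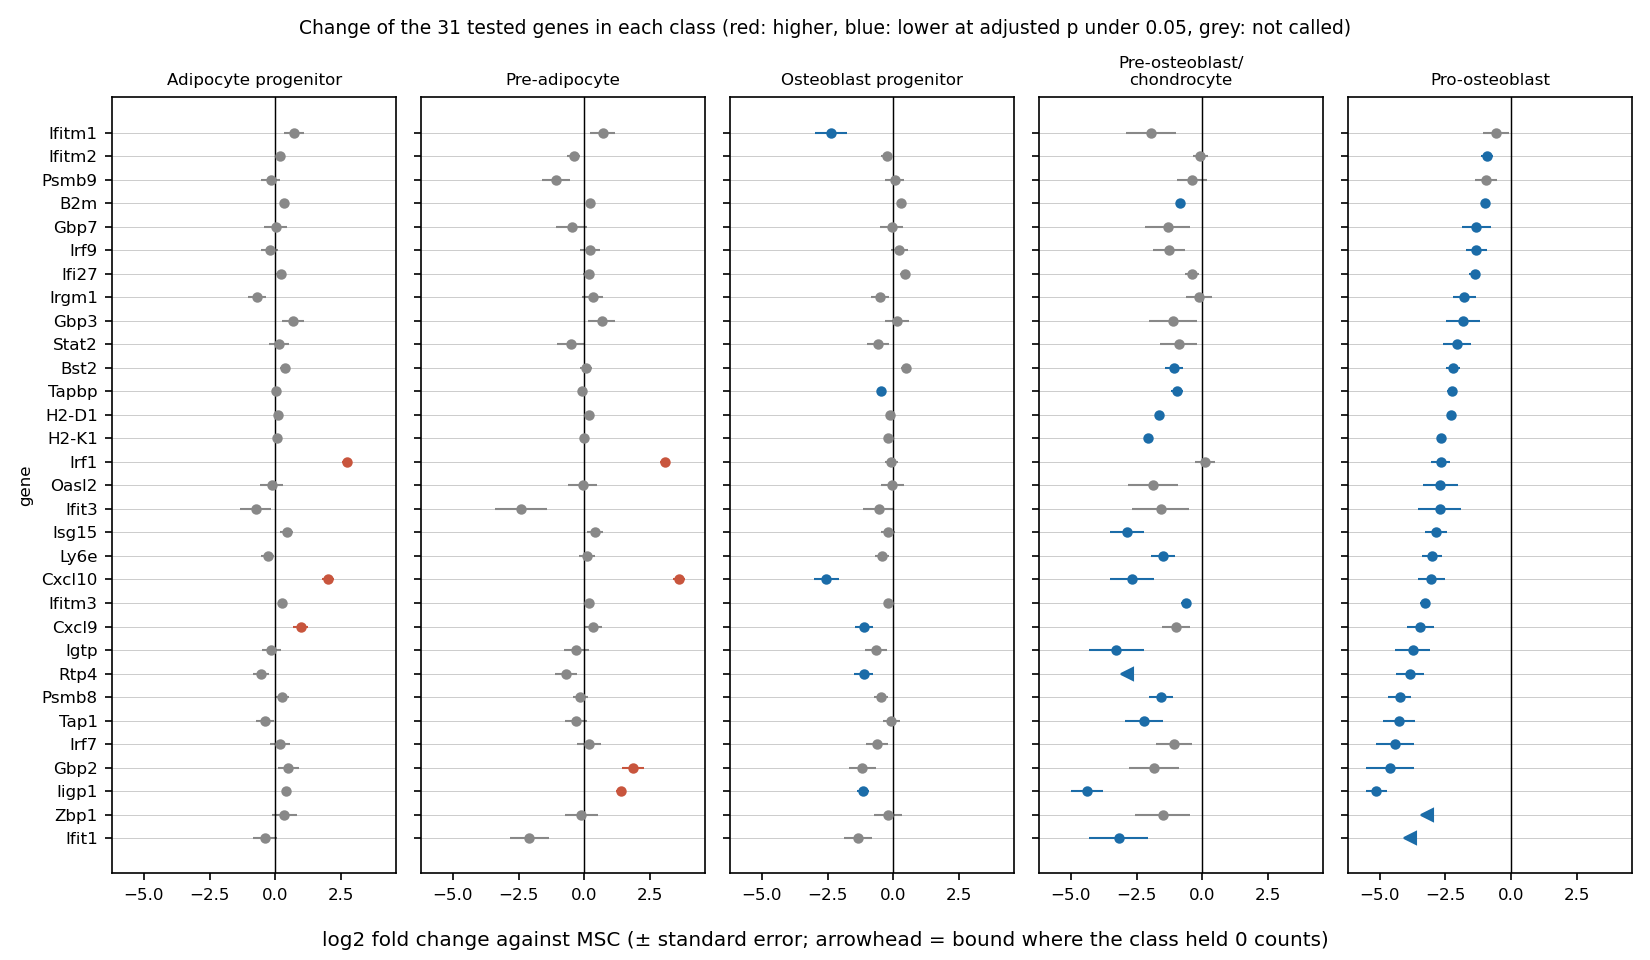
Each panel gives, for 1 class against MSC, the log2 fold change of the 31 tested genes with its standard error; red points were higher, blue points lower and grey points not called, and an arrowhead is the bound for a gene with 0 counts in the class. The adipocyte panels hold 3 and 4 red points, and the Pro-osteoblast panel holds 29 blue symbols.

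Genes around the pathway, from lists outside the 35, were mostly lower in Pro-osteoblast too. Of 15 tested interferon-induced genes 12 were lower, such as Lgals3bp (−4.91), Ifi47 (−3.58) and Samhd1 (−3.44), and 1 was higher. That gene was Ifitm5, which despite its name is known as a bone-specific gene of osteoblasts. Of 14 other class I genes 10 were lower, such as Tap2 (−3.904), H2-Q7 (−2.09) and the chaperone Calr (−1.07). Of 13 receptor and signalling genes 8 were lower, such as Ifnar2 (−1.68), and of 4 sensors of nucleic acid 3 were lower, such as Tmem173, which encodes STING (−3.23). The early-response genes Fos, Junb and Egr1 were lower as well (−2.02, −1.42 and −1.61). Of 10 constitutive proteasome genes 0 were lower and 2 higher with TMM, beside the 18.7% lower and 19.9% higher of all genes. The 2 were Psmb4 by 0.59 and Psmb6 by 0.86, though scaling to total counts gave −0.65 and −0.38 for those 2.

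Along the authors' osteoblast pseudotime, 1926 cells were divided into 5 equal parts. The first 2 parts were MSC cells (100% and 99.7%), the third was 92.5% MSC, the fourth 79.5% Osteoblast progenitor and the last 89.4% Pro-osteoblast, with 50 cells in Stroma1 and 336 in Stroma2. This comparison therefore reuses many of the cells of the class comparisons. In the last part against the first, 0 of 31 genes were higher and 28 lower, beside 18.5% of all 5709 genes higher and 19.0% lower; the median of the 31 was −2.31 and that of all genes −0.02. DESeq2 called 0 higher and 24 lower, and unadjusted 0 were higher. Gbp3, Ifitm1 and Psmb9 were not called. The direction was the same in both samples for 27 of the 28: Irf1 was at 62.8 and 90.2 in the first part and at 68.6 and 16.4 in the last.

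The genes did not fall at the same place on the path. B2m went from 5046 and 4835 normalised CPM in the first part through 5550 and 5207, 6374 and 5604, and 7069 and 6294 to 2796 and 2786 in the last, so its highest values came just before its lowest. Bst2 had the same form, with 211 and 243, 255 and 286, 454 and 270, 485 and 346, and then 34.3 and 81.7. H2-K1 stayed between 4487 and 5302 over the first 4 parts and dropped to 1012 and 719, and H2-D1 stayed between 3254 and 3794 and dropped to 832 and 657. Ifitm3 likewise stayed between 857 and 1133 and dropped to 189 and 127. Iigp1 was already lower before the last part, from 475 and 267 through 206 and 265, 213 and 179, and 156 and 91.6 to 8.58 and 5.45. Rtp4 and Tapbp had the same early decline, Rtp4 from 139 and 174 to 63.2 and 62.1 in the fourth part and Tapbp from 794 and 787 to 485 and 482. Cxcl9 was highest in the second part, at 281 and 165, and stood at 21.1 and 29.6 in the fourth. The steps between neighbouring parts were not tested.

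For the last against the first part, Iigp1 fell by 5.71 (SE 0.44, adjusted p = 5.63e-18), H2-K1 by 2.58 (SE 0.16, adjusted p = 1.32e-21) and H2-D1 by 2.23 (SE 0.16, adjusted p = 5.52e-19). B2m fell by 0.82 (SE 0.15, adjusted p = 5.44e-06), and per cell by 0.16 with adjusted p = 0.418. Cxcl9 fell by 2.31 (SE 0.43, adjusted p = 8.45e-06) and Cxcl10 by 2.63 (SE 0.76, adjusted p = 0.00370). The Cxcl10 change was −1.43 in Stroma1 alone, −4.35 in Stroma2 alone and −5.04 without cells with a blood marker. Psmb8 and Rtp4 fell by 4.34 and 4.31 (adjusted p of 7.81e-13 and 1.06e-11). Ifit1 and Zbp1 had 0 counts in the last part, at least 19.3-fold and 9.89-fold lower, and Irf7 had 2 counts against 36 (ratio 28.1, interval 7.24 to 241). A straight line over the 5 parts called 8 of 31 genes lower. It did not call B2m, H2-K1 or H2-D1 (adjusted p of 0.626, 0.123 and 0.138), nor Psmb8, Zbp1 or Irf7 (0.151, 0.161 and 0.0507). With the path in 3 parts the last against the first gave −1.20 for H2-K1, −2.86 for Iigp1, −1.66 for Psmb8 and −2.95 for Cxcl9, and B2m was not called (−0.22, adjusted p = 0.604). Per cell 21 genes were lower and by total counts 31; the share of higher genes among all calls was 49.4% with TMM, 75.6% per cell and 10.7% by total counts.

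**Figure D3:**
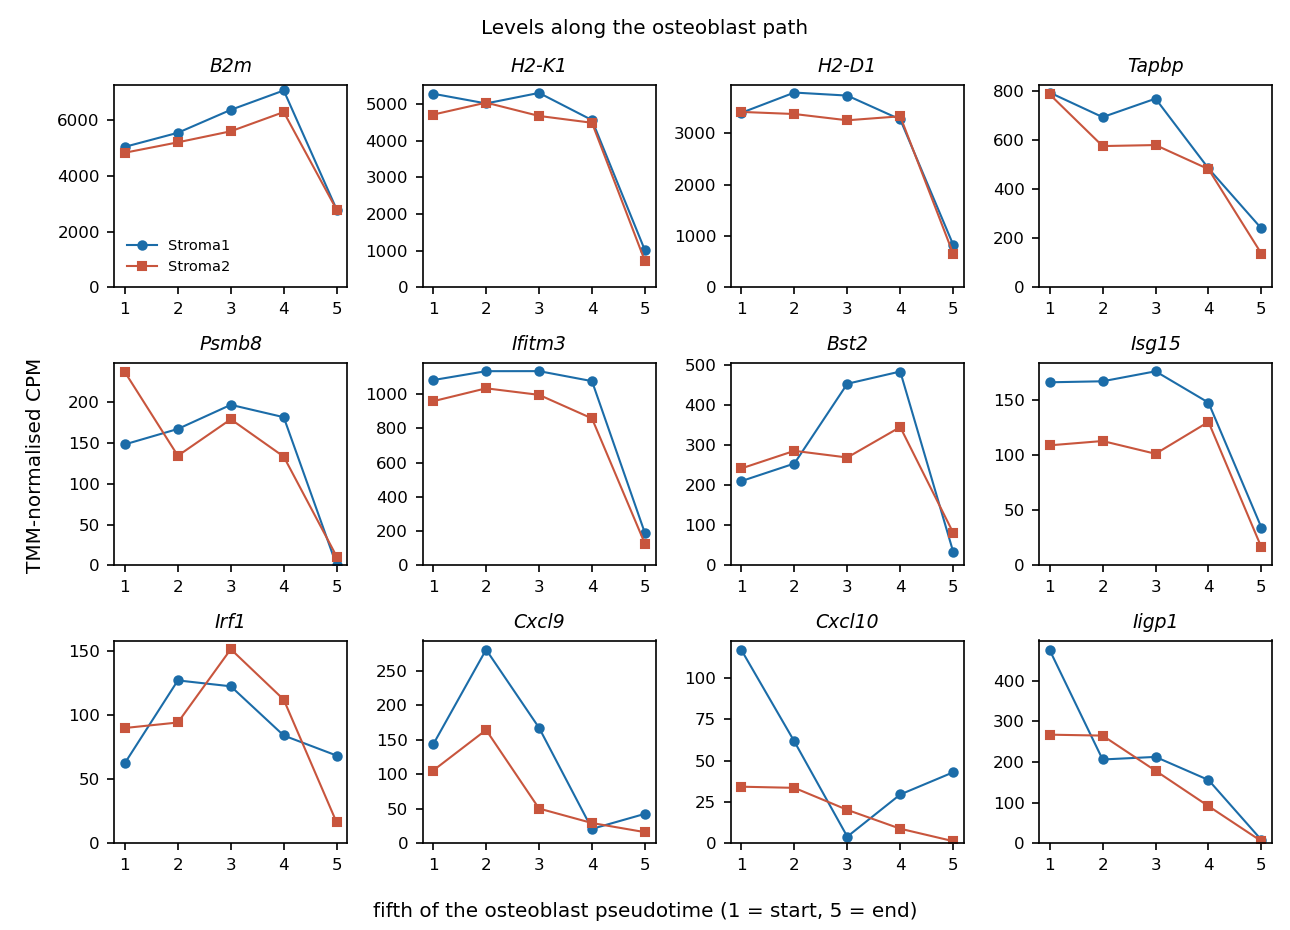
Each panel shows normalised CPM of 1 gene in the 5 parts of the osteoblast pseudotime, circles for Stroma1 and squares for Stroma2, on axes that start at 0. B2m and Bst2 climb to the fourth part before the drop, H2-K1, H2-D1 and Ifitm3 hold level until it, and Iigp1 is already low in the fourth part at 156 and 91.6.

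On the path 11 of 14 tested interferon-induced genes outside the 35 were lower and 1 higher, Ifitm5, with 0 and 1 counts in the first part and 98 and 560 in the last. Of 11 receptor and signalling genes 9 were lower, among them Ifnar1 (−1.20), Ifnar2 (−2.03), Ifngr1 (−0.9998) and Ifngr2 (−1.25). Of 14 other class I genes 9 were lower, with Tap2 at −3.36, and of 10 constitutive proteasome genes 0 were lower and 1 higher (19.0% and 18.5% of all genes), Psmb6 at 0.81, or −0.297 by total counts. Psmb6, Psmb5 and Psmb7 are the catalytic subunits that Psmb9, Psmb8 and Psmb10 replace in the immunoproteasome. Of these Psmb10 fell by 1.39 (adjusted p = 0.00578), Psmb5 changed by 0.37 (adjusted p = 0.363) and Psmb7 by 0.20 (adjusted p = 0.765).

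Transcripts of the interferons themselves were all but absent. Of 9 interferon genes 8 had 0 counts in passing cells, and Ifna4 had 1. MHC class II, used by cells such as macrophages and B cells, was near 0 too: H2-Aa and H2-Ab1 had 1 count each, Cd74 had 6 and the class II regulator Ciita had 2, over all passing cells. H2-Eb1 had 35 counts in 30 cells.

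Cxcl9 and Cxcl10 were held by few cells, and Iigp1 by more. Cxcl9 had 610 counts in 139 passing cells (4.88%), of which 67 held a single count and 32 held 5 or more, and those 32 had 72.8% of the counts. The 10 highest cells, with 13 to 54 counts each, held 44.9% of its counts and 0.327% of all counts, and 13 cells held 50% of it. Cxcl10 had 718 counts in 170 cells (5.97%), with 33.7% in its 10 highest cells, 12 to 48 counts each, and 50% in 23 cells. Iigp1 had 1060 counts in 489 cells (17.2%), with 14.1% in its 10 highest cells and 50% in 89 cells.

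Among the 1202 genes with at least 610 counts the median share of the 10 highest cells was 5.63%, and 192 cells held 50% of a gene at the median. By that share Cxcl9 ranked 2nd, after the cartilage collagen Col2a1 (59.0%), Cxcl10 3rd and Iigp1 22nd. Irf1 ranked 185th at 7.86%, Bst2 681st at 5.32%, Ifitm3 1173rd at 2.43% and B2m 1201st at 1.601%. The floor of 610 counts is the total of Cxcl9 itself, so no ranked gene had fewer counts, and shares were not matched on total counts. After each cell was thinned to 500 counts the shares were 49.8% for Cxcl9, 39.9% for Cxcl10 and 17.3% for Iigp1. Within 1 sample the 10 highest cells are a larger part of the cells: they held 70.8% and 52.9% of Cxcl9, 54.3% and 40.3% of Cxcl10 and 24.3% and 21.8% of Iigp1.

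**Figure D4:**
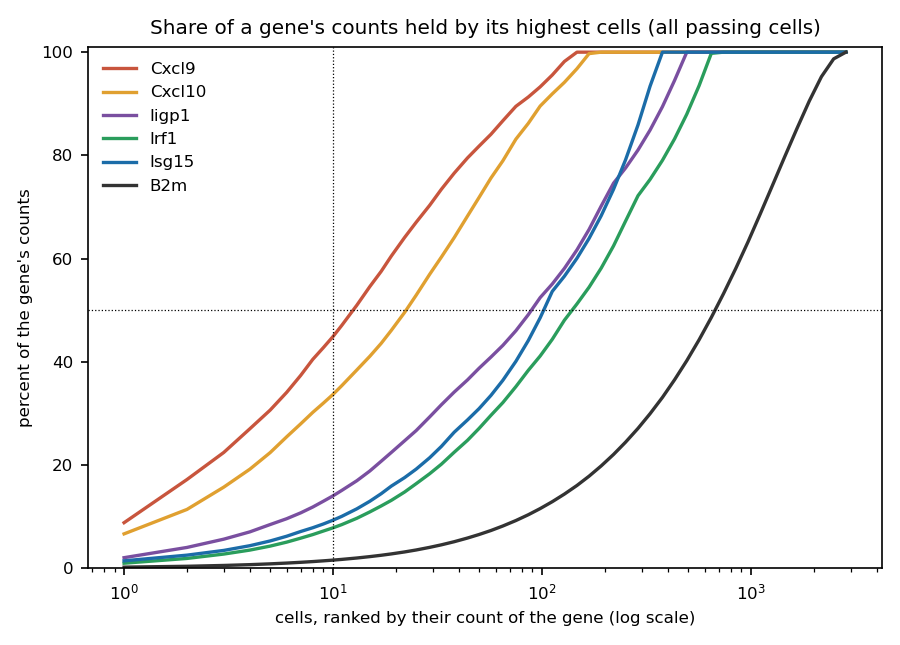
The vertical axis is the share of each gene's counts, in percent, over passing cells and the horizontal axis, on a log scale, the number of cells, ranked by their count of that gene. At the dotted line of 10 cells the curves stand at 44.9% for Cxcl9, 33.7% for Cxcl10, 14.1% for Iigp1 and 1.601% for B2m.

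The highest cells were spread over libraries and classes. The 10 highest Cxcl9 cells came from all 5 libraries and 4 classes, 4 of them MSC and 4 Adipocyte progenitor. The 10 highest Cxcl10 cells came from 4 libraries and 3 classes, 4 of them Pre-adipocyte, 3 MSC and 3 Adipocyte progenitor. Of the 10 highest Iigp1 cells 6 were MSC and 3 Pre-adipocyte. A blood marker was found in 2, 1 and 1 of the 10 cells, against 5.02% of all passing cells, and 0, 1 and 0 had a barcode shared between libraries. Within Stroma2 alone 3, 2 and 1 of its 10 highest cells had such a barcode. No library lacked the genes. Raw CPM per library ran from 74.1 to 162 for Cxcl9, from 78.9 to 249 for Cxcl10 and from 140 to 297 for Iigp1. The Stroma1 libraries were highest for each, and also for B2m, at 5777 and 5710 against 3750 to 4442. Pro-osteoblast, where these genes were lower, was 4.43% of Stroma1 and 16.1% of Stroma2 cells. Its part in this order of libraries was not tested.

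Cxcl10 had counts in 36.4% and 24.1% of Pre-adipocyte cells (exact Clopper-Pearson 95% intervals 24.9% to 49.1% and 17.4% to 31.9%), in 17.6% and 15.8% of Adipocyte progenitor cells and in 2.39% and 1.72% of MSC cells (1.24% to 4.14% and 0.942% to 2.87%). Thinned to 500 counts these were 18.2% and 13.8%, 8.48% and 8.72%, and 1.79% and 1.23%. Cxcl9 had counts in 10.6% and 7.59% of Pre-adipocyte, 7.27% and 12.1% of Adipocyte progenitor and 5.38% and 3.44% of MSC cells. The Cxcl9 intervals were 3.81% to 12.4% and 8.61% to 16.3% in Adipocyte progenitor and 3.57% to 7.73% and 2.29% to 4.93% in MSC. All these intervals count cells, which are not replicates of a class, so they do not measure the spread between samples. Adipocyte progenitor cells were also deeper than MSC cells, with medians of 1882 and 1450 counts. In the deeper Pro-osteoblast cells (medians of 4422 and 4201 counts, against 1378 and 1160 in MSC) the shares were 2.38% and 0.984% for Cxcl9 and 2.38% and 0.328% for Cxcl10. In Stroma1 each of these shares is a single cell out of 42. The part of free RNA in these shares was not tested, and no class known to lack these genes was at hand. Pre-adipocyte held 36.6% and 45.1% of the Cxcl10 counts with 6.96% and 7.64% of the cells. MSC held 58.5% and 33.1% of the Cxcl9 counts with 52.95% and 42.9% of the cells, and Adipocyte progenitor 24.6% and 45.4% with 17.4% and 15.7%.

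The 3 genes shared cells. Cxcl10 was detected in 38 of the 139 cells with Cxcl9 (27.3%) and in 4.87% of the others, Iigp1 in 69 of those 139 (49.6%) against 15.5%, and Iigp1 in 92 of the 170 cells with Cxcl10 (54.1%) against 14.8%. Cells with a gene were deeper, with medians of 1641 against 1396 counts for Cxcl9 and 1745 against 1386 for Cxcl10. Within MSC alone, Cxcl9 was found in 10 of the 26 Cxcl10 cells (38.5%) and in 3.49% of the others, and Iigp1 in 15 of the 26 (57.7%) against 17.7%. These are descriptions over cells of 2 samples, with no test. No doublet caller was run here, so a barcode may hold more than 1 cell, and the part of doublets in these counts was not tested.

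MSC cells with Cxcl10 numbered 12 and 14. In raw CPM, 22 of the 34 other members stood higher there than in the rest of MSC in both samples. Lower in both were 3, and 9 did neither. The share of all genes that stood higher in these cells was not computed, so the 22 have no baseline. Among the higher were Cxcl9 at 4413 and 1819 against 75.0 and 76.6, Iigp1 at 1739 and 1959 against 277 and 222, and Irf7 at 357 and 233 against 62.3 and 60.7. The lower were Ifi27, at 223 and 187 against 369 and 349, Stat2, at 0 and 46.6 against 62.3 and 64.7, and Xaf1. Stat2 had 0 and 1 counts in these cells, and Xaf1 had 0 here and only 3 and 7 in the rest. Some of the higher also rest on few counts, such as Gbp3 with 1 in Stroma1 and Usp18 with 1 in Stroma2. At so few counts the direction of a gene is uncertain. Of the Stroma1 counts, 1 cell held 32 of 99 for Cxcl9, 12 of 39 for Iigp1 and 2 of 8 for Irf7. Without it the Stroma1 values were 3099, 1249 and 278. Igtp, with 6 of its 8 counts in that cell, went from 357 to 92.5 against 66.5 in the rest. Ifit3 and Rsad2, with all of their 7 and 12 counts in that cell, went to 0 and then no longer stood higher in both samples. B2m (6731 and 6343 against 6071 and 5745) and H2-K1 (4903 and 5364 against 5461 and 5251) stood near the rest. The single Stroma1 cell, the one with most Cxcl10, had 816 counts and held 48 of Cxcl10, 7 of Ifit3 and 12 of Rsad2 (viperin, an antiviral enzyme), which is 50.0% of all Rsad2 counts in passing cells. The 35 genes made up 19.0% of its counts, against a median of 1.91% in MSC and 7.65% in the next highest cell, and 22 of them were detected; it also held 2 counts of blood markers.

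Pro-chondrocyte, with 4 and 10 cells, was not tested. B2m had 2 and 8 counts there, and Cxcl9, Cxcl10 and Iigp1 had 0.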

How the data were processed

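The authors deposited 1 table of counts per gene for 15028 barcodes, made from inDrops reads; Bowtie 1.1.1 and GRCm38 are named in the submitters' processing notes, with no order of use. How molecular identifiers were handled is not given in the sources used here. Per the file headers, deposited fractions used were the authors' osteoblast pseudotime, an evenly spaced rank from 0 to 1, and the authors' filter, library and class labels were taken as given. How the authors treated doublets is not given in the sources used here, and no doublet caller was run. Mitochondrial shares were taken from the deposited fraction of counts in each barcode. Counts were summed per sample and class (at least 15 cells in each sample, which leaves 6 classes) or per pseudotime part and tested with edgeR 4.0.16 in R 4.3.3: TMM, filterByExpr with a minimum count of 10, quasi-likelihood tests with terms for class and sample, so each class difference is taken within samples from the same labelled marrow. DESeq2 1.42.0 was an alternative. The fit was tested on simulated data. A standard error is the log2 change over the square root of F. Counting error alone sets the intervals and floors. The genes and lists were chosen with earlier results of these data known. In each comparison at most 6 rises and 6 falls, and always Cxcl9, Cxcl10, Iigp1, B2m, H2-K1 and H2-D1, have full statistics; other members are given as counts, ranges and levels, and examples from other lists were chosen after their values were seen. 1 gene of the receptor and signalling list is counted but not reported here by name.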

Additional observations from a re-analysis of the deposited data

Results flagged for a closer look

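Barcodes that the authors' filter did not pass, which no comparison used, also held counts of these genes. In 2260 such barcodes with 8968066 counts there were 53 counts of Cxcl9 in 21 barcodes, 110 of Cxcl10 in 57 and 188 of Iigp1 in 99, or 5.91, 12.3 and 20.96 raw CPM, against 114, 134 and 198 in passing cells. H2-Ab1, a class II gene with 1 count in passing cells, had 92 counts in 79 of these barcodes (10.3 raw CPM). Another 9921 barcodes, with 3235051 counts, had no filter label and were not used either. There Cxcl9 had 76 counts, Cxcl10 77 and Iigp1 150, or 23.5, 23.8 and 46.4 raw CPM. H2-Ab1 had 9 counts there (2.78 raw CPM).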

How the results depend on the processing

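Of 470 alternative values with a test, over the 56 named folds, 439 kept the side of the threshold, 29 lost the call and 2 gained it; 6 changed sign, all of B2m, H2-K1 or H2-D1 where these were not called. Of 112 values from 1 sample alone, which have no test, 109 kept the sign. The other 3 (Cxcl9 and H2-K1 in Pre-adipocyte, H2-K1 in Adipocyte progenitor) were not called with both samples. DESeq2's Wald test called 1 gene higher in Adipocyte progenitor and 2 lower in Osteoblast progenitor; a straight line over the path called 8 lower. Scaled to cell number, chosen after the data were seen, 6 were higher in Adipocyte progenitor, 2 higher and 3 lower in Osteoblast progenitor and 7 lower in Pre-osteoblast/chondrocyte. In Pre-adipocyte 1 was lower without the replicate block, with each barcode once and without cells with a blood marker, and 3 were lower by total counts. Without the block 1 named fold lost its call, Tapbp in Osteoblast progenitor (adjusted p = 0.0599 in edgeR's test). Without the filter on low counts 2 named folds lost their call, and 4 genes were lower in Osteoblast progenitor, against 6 with it. No other count moved by over 1.5 times. The cause of these changes was not tested. Thinned to 500 counts, the 10 highest cells held 49.8% of Cxcl9, 39.9% of Cxcl10 and 17.3% of Iigp1, and 2.53%, 3.34% and 8.71% of cells had a count. Without either sample the 10-cell shares were 52.9% to 70.8%, 40.3% to 54.3% and 21.8% to 24.3%, from fewer cells. Leaving out a sample leaves no residual degrees of freedom, so folds but no counts of calls were recomputed. Where a class held 5 or fewer counts of a gene, depth limits the size of its fall.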
